A study of Mus musculus with 6 samples.

Results

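The genes described here encode the respiratory chain and ATP synthase of mouse mitochondria, and they are split between the nuclear genome and mitochondrial DNA. They were chosen by symbol: Nduf, Uqcr, Sdh, Cox4 to Cox8 and Atp5 names in the nucleus, and the mt-Nd, mt-Co, mt-Cytb and mt-Atp names on mitochondrial DNA. Of 120 matching symbols, 9 pseudogenes named as such, 4 other processed pseudogenes and Ndufa4l2 were left out, which gave 106 genes of 56196 listed (93 nuclear and 13 mitochondrial). RNA was measured by sequencing of polyadenylated transcripts in 6 mouse osteosarcomas. In 3 tumours (DKO1 to DKO3) the genotype was Osx1-Cre;Rb1lox/lox;p53lox/lox, with Skp2 intact. The other 3 (TKO1 to TKO3) carried the same alleles and SKP2-/- in addition, so loss of the tumour suppressors Rb1 and p53 is shared by both groups and Skp2, the substrate-binding subunit of a ubiquitin ligase, is the labelled difference. Cre was driven by Osx1, the promoter of the osteoblast gene Sp7, so Rb1 and p53 are meant to be lost in the osteoblast lineage, whereas other host cells in a tumour keep them. Replicate 1 of each group is male and the other 2 are female, no treatment or age is given, and nothing in the labels says that each tumour came from a separate mouse.

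The respiratory chain passes electrons from NADH (complex I) and succinate (complex II) through ubiquinone to complex III, then through cytochrome c to complex IV, which reduces oxygen. Complexes I, III and IV pump protons, and complex V (ATP synthase) uses the gradient to make ATP. Complex II is wholly nuclear-encoded, whereas the other complexes combine nuclear subunits with a few made inside mitochondria from mitochondrial DNA, and some complex IV subunits exist as a general isoform and as one of heart and skeletal muscle.

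Mitochondrial DNA has partial copies in nuclear chromosomes, which bears on what can be counted there. A stretch on chromosome 1 (mm10) repeats the genes between mt-Co1 and mt-Nd4. The copies run antisense to the chromosome numbering and match mt-Co2, mt-Atp6, mt-Co3 and mt-Nd4l base for base over 681, 678, 783 and 294 bases. For mt-Nd3 (chrM:9459-9806, plus strand), the copy Gm28438 (chr1:24612775-24613119, minus strand) differs at 1 base of 345, T3C, counted from the first base of the gene. The first 60 bases of both, from GENCODE M21 transcripts with the differing base in capitals, show how little there is to tell the genomes apart.
mt-Nd3: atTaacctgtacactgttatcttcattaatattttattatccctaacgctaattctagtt
Gm28438: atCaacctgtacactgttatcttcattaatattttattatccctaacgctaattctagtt
A read that matches 2 places equally well is not counted for either gene. The 5 genes with a complete copy and mt-Atp8, which lies among them, had levels of 0.516 to 26.6 counts-per-million (CPM) per kilobase of transcript over the 6 tumours. The other 7 genes had 178 to 10710 CPM per kilobase. These 7 (mt-Nd1, mt-Nd2, mt-Co1, mt-Nd4, mt-Nd5, mt-Nd6 and mt-Cytb) held 99.8 to 99.9% of the counts of all 13 in every tumour, so the levels of the other 6 are not measures of their transcripts. Within the 7, a copy covers 63.6% of mt-Nd4 without a mismatch, and copies on chromosomes 1 and 2 match mt-Co1 at 99.8% over 31.3% of its length and at 97.6% over all of it. The gene mt-Nd6 overlaps mt-Nd5 on the opposite strand. It kept 39745 counts over the 6 tumours, against 94376 when the strands were counted apart. Counting ignored strand, so its counts could hold reads of mt-Nd5, which was not tested.

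**Figure D1:**
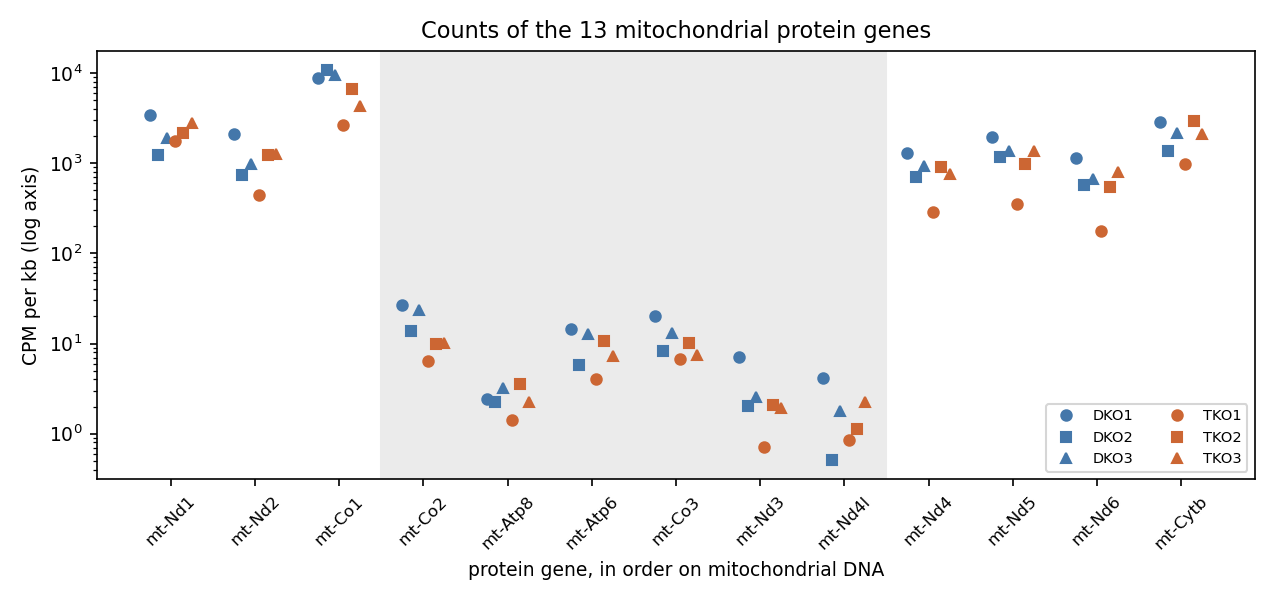
Level of the 13 mitochondrial protein genes in each tumour, in CPM per kilobase on a log axis, ordered as on mitochondrial DNA, with DKO in blue and TKO in orange. The shaded genes are the 5 with a complete chromosome 1 copy and mt-Atp8, all at or under 26.6, whereas mt-Co1 reaches 10710.

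Promoters of the nuclear genes were read from RefSeq (GRCm38.p6), taking 250 bases before each listed transcription start of the 74 nuclear symbols that matched. A gene with several starts was counted once, if any of its promoters held the motif. NRF1 and the ETS-family factor GABP (also called NRF2) are known regulators of nuclear respiratory genes, and MEF2 and E-box motifs are bound by muscle factors. On both strands, the NRF1 motif (GCGC and TGCGC with any 1 base between) occurred in 14 of 74 members (18.9%), against 4.23% of 27025 genes. The ETS motif CCGGAAG also occurred in 14 (18.9%), against 7.83%. The muscle E-box CAGCTG occurred in 6 (8.11%, against 14.7%) and the MEF2 motif (CTA and TAG with any 4 bases between) in 1 (1.35%, against 3.7%). No motif contains another, and a match describes the letters only. Printed here, to show promoters with and without matches, are that of the general isoform Cox6a1 (chr5:115348959-115349208, minus strand), with 2 NRF1 matches and 1 ETS match, that of the muscle isoform Cox8b (chr7:140900447-140900696, minus strand), with 1 E-box match, and that of Ndufb8 (chr19:44555443-44555692, minus strand), the member with the smallest p-value in the tumours, with none. Capitals mark the matches.
Cox6a1: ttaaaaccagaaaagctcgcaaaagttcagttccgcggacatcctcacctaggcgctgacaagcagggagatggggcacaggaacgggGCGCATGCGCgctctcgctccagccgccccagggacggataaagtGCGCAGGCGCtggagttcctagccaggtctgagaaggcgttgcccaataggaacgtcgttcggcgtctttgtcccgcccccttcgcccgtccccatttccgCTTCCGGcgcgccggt
Cox8b: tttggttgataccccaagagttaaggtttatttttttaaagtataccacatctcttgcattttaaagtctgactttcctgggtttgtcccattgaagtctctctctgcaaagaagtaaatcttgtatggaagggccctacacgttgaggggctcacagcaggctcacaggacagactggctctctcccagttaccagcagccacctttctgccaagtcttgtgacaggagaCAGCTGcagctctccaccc
Ndufb8: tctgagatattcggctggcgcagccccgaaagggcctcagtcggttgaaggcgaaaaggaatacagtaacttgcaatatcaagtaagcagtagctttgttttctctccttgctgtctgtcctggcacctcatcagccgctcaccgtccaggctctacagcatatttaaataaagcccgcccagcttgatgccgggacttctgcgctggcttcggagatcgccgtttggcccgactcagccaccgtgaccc
Of the 6 members called different between the groups below, 5 had a promoter in the table, and 0 of these 5 held any of the 4 motifs.

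Depth was 17063231 to 22488819 gene counts per library, and no library repeated another. Skp2 matched the labels, at 0.996, 3.27 and 2.73 CPM in the DKO tumours and 0 counts in all 3 TKO tumours. TKO1 stood apart: across genes, the correlation of log2 CPM was 0.83 between TKO1 and TKO2 and 0.805 between TKO1 and TKO3, against 0.915 for TKO2 with TKO3 and 0.933 to 0.954 among the DKO tumours. Markers of the labelled osteoblast lineage were uneven in both groups: Sp7 was at 0 in DKO2 and TKO1, 0.416 CPM in DKO3 and 7.97 in DKO1, but 206 and 433 in TKO2 and TKO3, and Col1a1 was 209 CPM in TKO1 against 9947 to 30230 in the others, with 0 of 7 tested markers called. Markers of other cells were higher in TKO: all 6 endothelial genes, all 4 tested red cell genes, 7 of 8 macrophage and leukocyte genes and 12 of 14 tested skeletal muscle genes were called. Of all genes tested, 4.89% were called higher. Summed levels rose from 8.23 to 10.03 CPM in DKO to 155 to 786 in TKO for endothelial genes, from 6.52 to 123.3 up to 717 to 2315 for leukocyte genes, and from 4.88 to 19.8 up to 432 to 13240 for muscle genes. Their part in the results below was not tested, and in bulk tumours fewer cells of a type and less RNA per cell cannot be told apart.

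Nuclear and mitochondrial respiratory genes stood on opposite sides of the group difference. The nuclear share and the ratio below use 82 nuclear members, without the Ndufaf assembly factors and the muscle isoforms Cox6a2, Cox7a1 and Cox8b. These took 0.463, 0.419 and 0.479% of all gene counts in the DKO tumours (here and below in the order of their numbers) and 0.794, 0.677 and 0.792% in the TKO tumours (mean 0.454 ± 0.0312 against 0.754 ± 0.0669, SD, n = 3 each). The lowest TKO tumour lay above the highest DKO tumour. The 13 mitochondrial mRNAs took 2.61, 2.46 and 2.37% in DKO and 0.902, 1.97 and 1.67% in TKO (2.48 ± 0.122 against 1.51 ± 0.55), with every TKO tumour below every DKO tumour and TKO1 lowest. The log2 ratio of mitochondrial to nuclear counts, which needs no library scaling, was 2.49, 2.56 and 2.31 in DKO and 0.18, 1.54 and 1.08 in TKO (2.45 ± 0.13 against 0.93 ± 0.69). In each of these 3 measures the exact two-sided permutation p was 0.1, the smallest that 20 assignments of 3 against 3 tumours allow, so none can pass 0.05. Without TKO1 the difference (TKO minus DKO) in the log2 ratio was -1.14, against -1.52 with it. The difference in mitochondrial share was then -0.66 percentage points, against -0.966, and that in nuclear share 0.281, against 0.30.

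**Figure D2:**
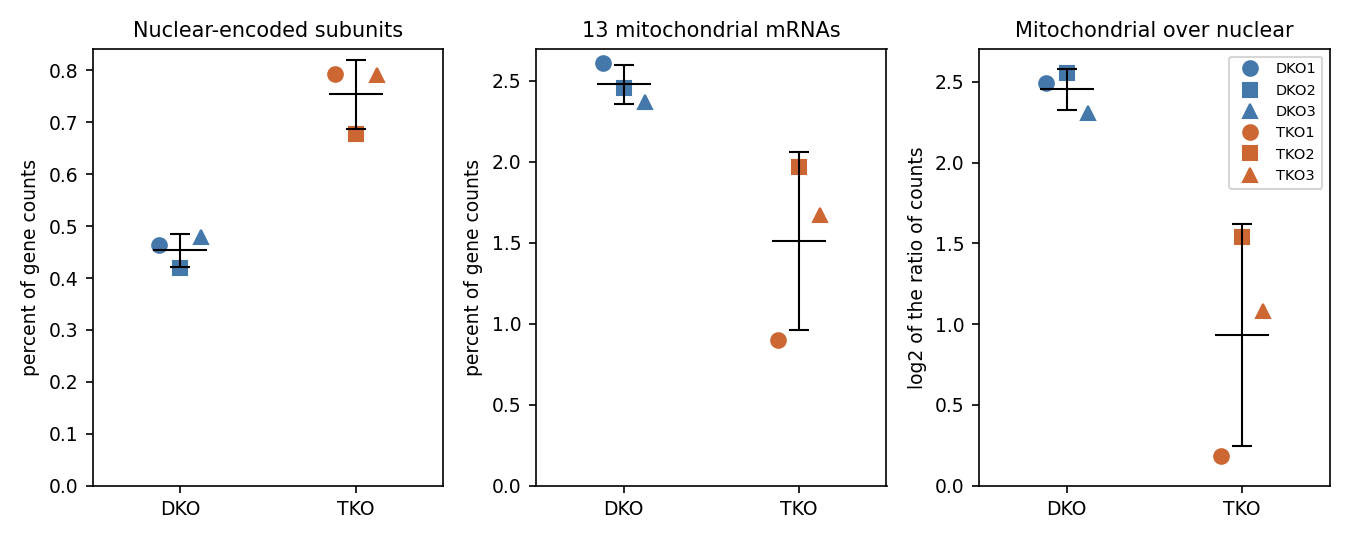
Percent of gene counts from the nuclear subunit genes (left) and the 13 mitochondrial mRNAs (middle), and the log2 ratio of the second to the first (right), for each tumour, with the group mean and SD in black. The DKO and TKO points do not overlap in any panel, and TKO1 is lowest in the middle and right panels at 0.902% and 0.18.

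In the group means, most of the lower mitochondrial share lay in mt-Co1, the catalytic core subunit of complex IV. Its level was 8723, 10710 and 9442 CPM per kilobase in DKO and 2637, 6599 and 4330 in TKO. The groups did not overlap, and the log2 fold change was -1.09 (SE 0.50), which edgeR's quasi-likelihood test did not call (adjusted p = 0.23 by Benjamini-Hochberg over 15361 genes). With mt-Co1 left out, a step chosen after its values were seen, the other 12 mRNAs took 1.36, 0.728 and 0.928% of counts in DKO and 0.467, 0.974 and 1.01% in TKO (1.00 ± 0.321 against 0.819 ± 0.305, exact permutation p = 0.6). TKO2 and TKO3 then lay within the DKO range, and only TKO1 was below it. The difference in means was -0.186 percentage points, against -0.966 with mt-Co1. As a part of the counts of all 13, mt-Co1 was 48.0, 70.4 and 60.8% in DKO and 48.2, 50.5 and 39.25% in TKO. The groups overlapped (exact permutation p = 0.3), and TKO1 was close to DKO1. The log2 ratio to nuclear counts without mt-Co1 was 1.55, 0.80 and 0.96 in DKO and -0.76, 0.52 and 0.36 in TKO, again without overlap (exact permutation p = 0.1).

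Among the complex I subunits of mitochondrial DNA, mt-Nd1 was 3377, 1234 and 1880 CPM per kilobase in DKO and 1741, 2158 and 2816 in TKO, a log2 fold change of 0.05 (SE 0.47). For mt-Nd5 the level was 1930, 1184 and 1360 in DKO and 350.1, 989 and 1349 in TKO, a log2 fold change of -0.74 (SE 0.55). In both the groups overlapped, and mt-Nd2, mt-Nd4 and mt-Nd6 overlapped as well, with log2 fold changes of -0.37, -0.59 and -0.65. The single complex III subunit of mitochondrial DNA, mt-Cytb, had 2845, 1359 and 2132 CPM per kilobase in DKO and 969, 2897 and 2109 in TKO. Its log2 fold change was -0.09 with TKO1 and 0.24 without it, and neither was called. Of the 12 mitochondrial genes tested, 11 had log2 fold changes below 0 (median -0.64), 0 were called in either direction and 1, mt-Co2, had an unadjusted p under 0.05 in edgeR. These 12 include mt-Co2, mt-Co3, mt-Atp6, mt-Nd3 and mt-Nd4l, whose counts are not measures of their transcripts. Over the 7 genes that held nearly all counts, mt-Nd6 among them, 6 were below 0 and the median was -0.59. Of these 7, 0 were called or had an unadjusted p under 0.05. The median over all mitochondrial genes depended on single tumours. Over the 13 genes then tested, mt-Atp8 and the genes with a complete copy included, it was -0.30 with 10 below 0 without TKO1. Without DKO1 it was -0.35 with 9 below 0. DESeq2 called mt-Co2 and no other (adjusted p = 0.0304), a gene whose level the copy on chromosome 1 obscures. The counts that mt-Co2, mt-Co3, mt-Atp6, mt-Nd3 and mt-Nd4l keep gave log2 fold changes of -1.27, -0.78, -0.59, -1.30 and -0.63, and mt-Atp8, with 7 to 15 counts per tumour, did not pass the filter on low counts.

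Of the 106 members 98 passed that filter, and 6 (6.12%) were called, against 7.36% of all 15361 genes. All 6 were among the 86 tested nuclear members (6.98%) and higher in TKO, against 4.89% of all genes called higher and 2.47% lower, so the count of calls is near the background. A larger part of the nuclear members separated the groups in direction: in 44 of 86 (51.2%) all 3 TKO values lay above all 3 DKO values, against 17.3% of all genes tested. In 2 (Ndufab1 and Ndufaf7, 2.33%) all TKO values lay below, against 15.6%. The unadjusted p was under 0.05 with a higher TKO level in 36 (41.9%), against 14.4% of all genes, and with a lower level in 1, against 10.6%. The median nuclear log2 fold change was 0.69, with 73 of 86 (84.9%) above 0. The median of all genes was 0.09, with 54.2% above 0. Members share regulators and libraries, so these counts describe the list and are not independent tests.

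**Figure D3:**
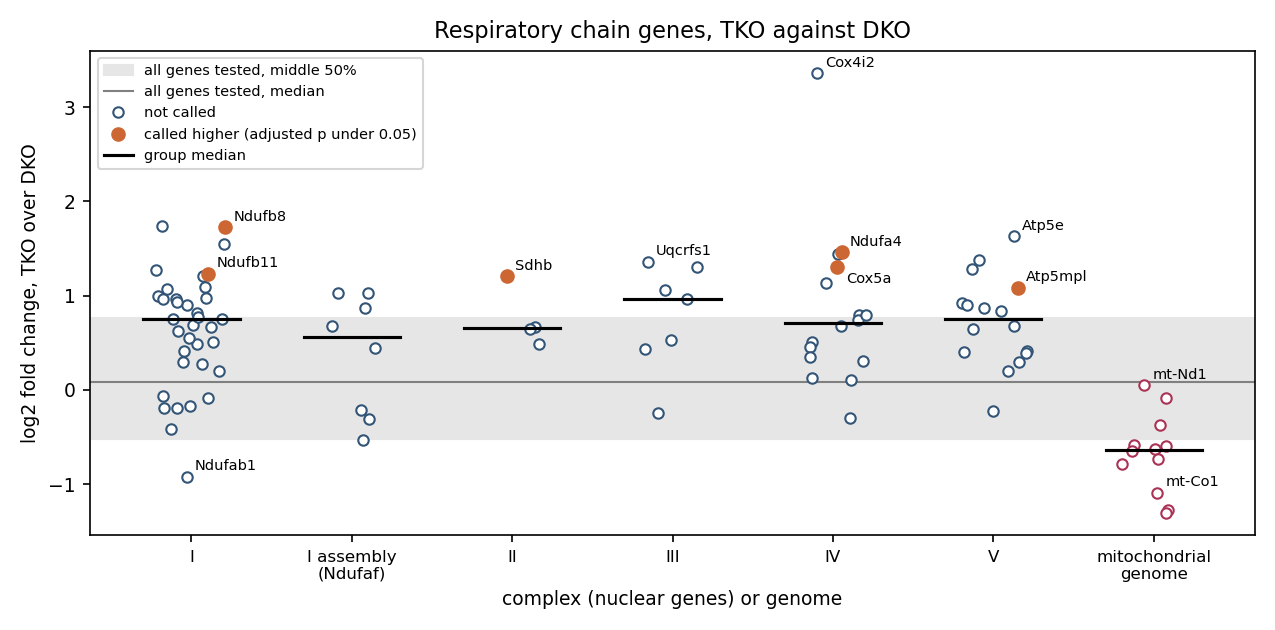
Log2 fold change (TKO over DKO) of each tested member, by complex for nuclear genes and together for mitochondrial genes. Filled points were called higher, black bars are group medians, and the grey band and line give the middle 50% and the median of all 15361 genes. The 6 nuclear medians lie between 0.56 and 0.96. The mitochondrial median, with the genes that have a complete nuclear copy included, is -0.64.

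Complex I, the NADH dehydrogenase, had 35 nuclear subunits tested, with a median log2 fold change of 0.75 and 28 above 0. Ndufb8, an accessory subunit of the membrane arm (chr19:44548572-44555440, minus strand), had 13.8, 14.2 and 14.01 CPM in DKO and 42.8, 36.7 and 59.5 in TKO. The 3 DKO values were nearly equal and all TKO values lay above them, a 3.3-fold higher level (log2 1.72, SE 0.30, adjusted p = 0.0257). Ndufb11, an X-linked membrane arm subunit (chrX:20615326-20617619, minus strand), had 36.5, 24.4 and 41.2 CPM in DKO and 81.5, 75.4 and 83.5 in TKO, again without overlap (2.35-fold, log2 1.23, SE 0.28, adjusted p = 0.0476). Ndufa1, an X-linked subunit needed for assembly of the membrane arm, had the highest log2 fold change of the complex, with 9.81, 5.37 and 10.03 CPM in DKO and 29.0, 19.4 and 35.7 in TKO, and missed the threshold (1.74, SE 0.41, adjusted p = 0.052). Among core subunits that carry flavin or iron-sulphur clusters, Ndufs1, Ndufs7, Ndufs8, Ndufv1 and Ndufv2 had log2 fold changes of 0.49, 0.29, 0.97, 1.21 and 0.75, and 0 of these 5 were called. Ndufab1, the mitochondrial acyl carrier protein, which also works in lipoic acid synthesis outside the complex, went the other way: 26.5, 26.4 and 20.8 CPM in DKO and 11.2, 15.2 and 12.6 in TKO (log2 -0.92, SE 0.31, adjusted p = 0.124). It kept 2232 counts over all tumours, against 7988 when the strands were counted apart. The gene Gm44986 overlaps it on the opposite strand, and reads in both genes were left out. Nearly identical copies at other loci cover 13.5% of its transcript, so its level is uncertain.

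The 8 Ndufaf genes, which encode factors that help assemble complex I and are not part of it, were mixed, with 5 above 0 and 3 below and a median of 0.56. Ndufaf4 had 19.2, 14.2 and 10.2 CPM in DKO and 39.5, 24.7 and 24.9 in TKO, a log2 fold change of 1.03 (SE 0.38, adjusted p = 0.148). Ndufaf7, a mitochondrial methyltransferase, had 25.9, 25.1 and 21.97 CPM in DKO and 12.4, 19.8 and 18.5 in TKO, a log2 fold change of -0.53 (SE 0.32, adjusted p = 0.348). In both the groups did not overlap, in opposite directions. Ndufaf2 (log2 1.03) and Ndufaf8 (0.87) were not called either.

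Complex II, succinate dehydrogenase, feeds electrons from the tricarboxylic acid cycle and has no mitochondrially encoded subunit. All 4 genes had log2 fold changes above 0 (median 0.66). Sdhb, the iron-sulphur subunit (chr4:140961203-140979193, plus strand), had 71.0, 70.7 and 49.6 CPM in DKO and 174, 135 and 132 in TKO, 2.31-fold higher without overlap (log2 1.20, SE 0.28, adjusted p = 0.0467). Sdha, the flavoprotein, had 165, 138 and 161 CPM in DKO and 222 to 270.2 in TKO, and was not called (log2 0.67, SE 0.24, adjusted p = 0.147). The membrane anchors Sdhc and Sdhd had log2 fold changes of 0.65 and 0.48, with overlapping groups.

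Complex III, the cytochrome bc1 complex, had the highest median of the complexes, 0.96 over 7 tested nuclear genes, with 0 called. Uqcrfs1, the Rieske iron-sulphur protein, had 55.4, 53.0 and 86.9 CPM in DKO and 170.5, 118 and 213 in TKO, without overlap (log2 1.36, SE 0.34, adjusted p = 0.0602). Uqcr11 had 17.5, 19.9 and 32.2 CPM in DKO and 42.7, 51.1 and 77.9 in TKO (log2 1.30, SE 0.37, adjusted p = 0.0852). Uqcrb and Uqcrh were at 1.06 and 0.96, and Uqcrq, with overlapping groups, at -0.24. Nearly identical copies at other loci cover 62.8% of the Uqcrb transcript and 38.4% of that of Uqcr11, so their reads could be split between loci. Uqcrc1, a core subunit, was listed at 0 counts in every library, as was Atp5a1, the alpha subunit of ATP synthase, and Ndufs3, a core subunit of complex I, had 0 counts in 5 libraries and 2 in the other. These enzymes cannot be built without these subunits, so the counts are not usable as levels, and the cause was not tested.

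Complex IV, cytochrome c oxidase, had 16 nuclear genes tested, 15 of them above 0 (median 0.71). Cox5a (chr9:57521274-57532426, plus strand), a general subunit on the matrix side, had 19.5, 16.9 and 19.2 CPM in DKO and 41.4, 46.5 and 49.6 in TKO, 2.47-fold higher without overlap (log2 1.31, SE 0.26, adjusted p = 0.0333). An annotated antisense gene at the same locus, Gm26631, overlaps 42% of its transcript, and reads that fall in both genes were left out. Cox5a kept 3978 counts over the 6 tumours, against 9156 when the strands were counted apart. Overlaps of this kind also lie at Ndufb8, with Gm20538 on the same strand (21%), and at Ndufb11, with Rbm10 on the opposite strand (12.9%). No nearly identical copy at another locus was found for any of the 6 called members. Cox5b, its zinc-binding partner, had 55.9, 36.2 and 52.5 CPM in DKO and 88.5, 103 and 125 in TKO (log2 1.13, SE 0.29, adjusted p = 0.0609), with nearly identical copies at other loci over 50.9% of the transcript, so its reads could be split between them. The mitochondrially encoded core of the same complex, mt-Co1, was lower in every TKO tumour than in any DKO tumour, and Cox5a was higher.

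Ndufa4, first named as a complex I subunit and now placed in complex IV, changed in the opposite direction to its paralog Ndufa4l2. The paralog is a hypoxia-induced protein that is no member of the set. Ndufa4 (chr6:11900292-11907497, minus strand) had 65.6, 34.9 and 45.6 CPM in DKO and 137, 130.4 and 136 in TKO, 2.76-fold higher (log2 1.47, SE 0.30, adjusted p = 0.0356). Ndufa4l2 had 110.4, 127 and 78.5 CPM in DKO and 2.00, 9.50 and 4.44 in TKO, 19.8-fold lower (log2 -4.31, SE 0.62, adjusted p = 0.0182). The Ndufa4l2 call ended without DKO1, DKO2, DKO3 or TKO3 (edgeR adjusted p of 0.0693, 0.0748, 0.0624 and 0.0562), with log2 fold changes of -4.17 to -4.49. Ndufa4l2 made up 62.7, 78.5 and 63.2% of the counts of the pair in DKO and 1.44, 6.79 and 3.15% in TKO, not corrected for length. The groups lay far apart (68.1 ± 8.95 against 3.79 ± 2.73%, SD, n = 3 each, exact permutation p = 0.1, the smallest possible).

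Cox4i2, an isoform of Cox4i1 found in lung and induced by low oxygen, did not follow Ndufa4l2. It had 1.54, 0.869 and 2.02 CPM in DKO and 0.625, 15.5 and 29.6 in TKO, so TKO2 and TKO3 were high and TKO1 was the lowest of all 6. The log2 fold change of 3.36 (SE 1.21) was not called (adjusted p = 0.144), but was in the fit without TKO1 (3.92, adjusted p = 0.0105). Cox4i2 was 1.06, 0.866 and 1.54% of the counts of the Cox4 pair in DKO and 0.214, 9.48 and 12.5% in TKO. Cox4i1 itself had 144.5, 99.5 and 129 CPM in DKO and 292, 148 and 207 in TKO, without overlap (log2 0.79, SE 0.33, adjusted p = 0.196).

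**Figure D4:**
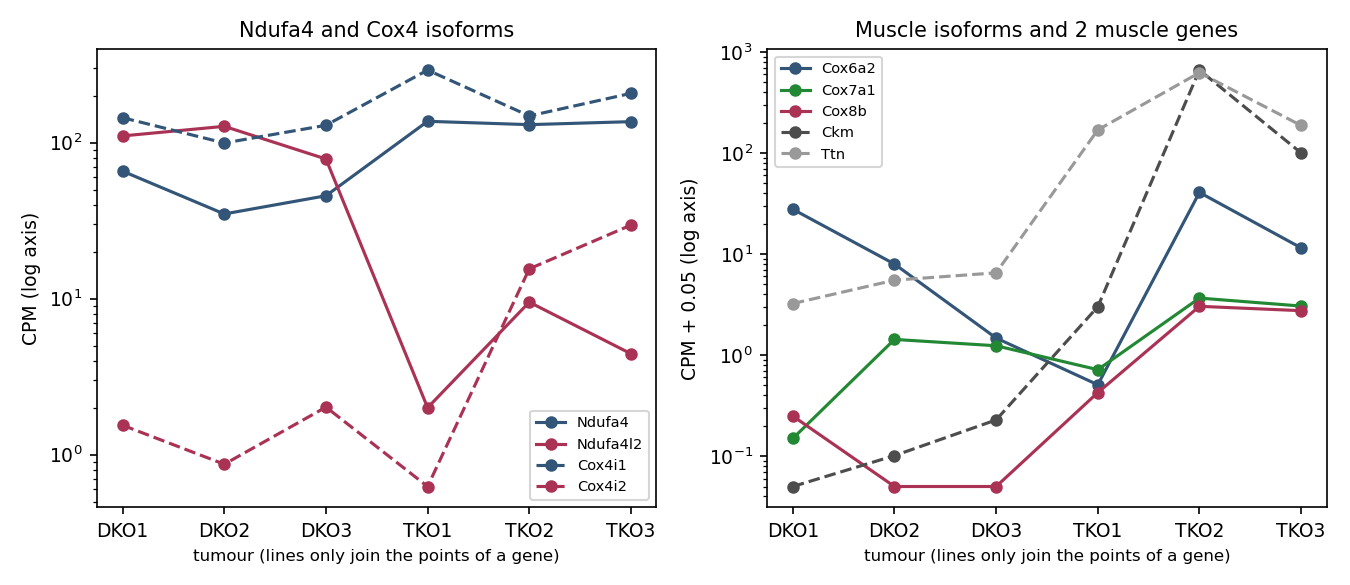
Level in each tumour, in CPM on log axes, of Ndufa4, Ndufa4l2, Cox4i1 and Cox4i2 (left) and of the muscle isoforms Cox6a2, Cox7a1 and Cox8b beside the muscle genes Ckm and Ttn, with 0.05 added (right). Ndufa4l2 falls from 78.5 to 127 in DKO to 2.00 to 9.50 in TKO, and Cox6a2 is at 27.7 in DKO1, where Ckm is at 0.

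Of the other general genes of complex IV, Cox6b1 and Cox7b had log2 fold changes of 0.45 and 0.74, and Cox7a2l, which joins complexes III and IV into supercomplexes, of 0.13. The testis isoform Cox6b2 was at 0.0834 to 1.28 CPM in all tumours, Cox7b2 had 1 count in 1 library, and Cox8c had none. A count of 0 allows up to 3 counts of a gene in a library, for counting error alone.

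Complex V had 16 nuclear genes tested, 15 of them above 0 (median 0.76). Atp5mpl, a small proteolipid of the membrane part (chr12:111961375-111966977, minus strand), had 24.8, 23.6 and 22.2 CPM in DKO and 47.0, 50.5 and 52.3 in TKO, 2.12-fold higher (log2 1.09, SE 0.25, adjusted p = 0.0456). Both groups were tight and did not overlap. Per kilobase, Atp5b, the catalytic beta subunit, had the highest level of the nuclear members, at 348 ± 68.0 CPM per kilobase in DKO and 622 ± 119.5 in TKO (SD, n = 3 each), with a log2 fold change of 0.84 that was not called (adjusted p = 0.18). The genes Atp5g1, Atp5g2 and Atp5g3 encode the identical mature subunit c of the rotor ring. Atp5g3 had 78.8, 57.4 and 92.8 CPM in DKO and 145, 181 and 231 in TKO, without overlap (log2 1.28, SE 0.31, adjusted p = 0.054), whereas Atp5g1 and Atp5g2 overlapped, at 0.87 and 0.40. Nearly identical copies at other loci cover 88.2% of the Atp5g2 transcript and 13.2% of that of Atp5g1, so their reads could be split between loci. Atp5e, the epsilon subunit of the central stalk, had the highest log2 fold change of the complex, 1.64 (SE 0.52, adjusted p = 0.113), with TKO1 at 33.3 CPM, within the DKO range of 16.3 to 35.5, and TKO2 and TKO3 at 81.9 and 116. Atp5f1, the peripheral stalk subunit b, was at 0.93, with a nearly identical copy at another locus over 43.4% of its transcript.

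**Figure D5:**
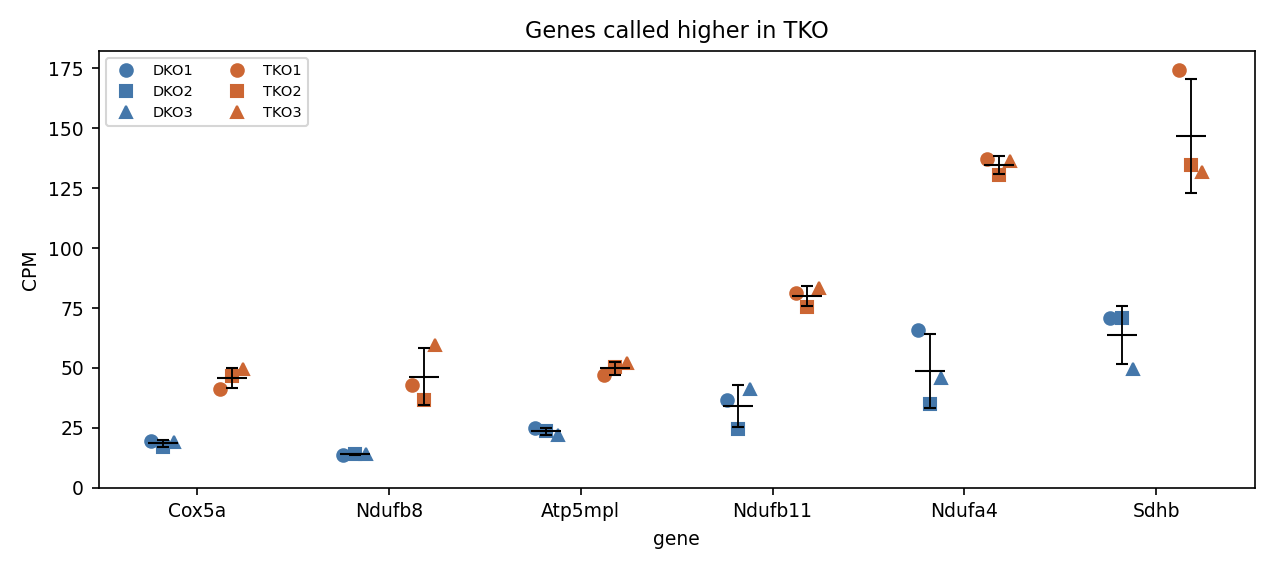
CPM in each tumour of the 6 members called higher in TKO, with the group mean and SD in black, on a linear axis from 0. In each gene all 3 TKO values lie above all 3 DKO values, from Cox5a at 16.9 to 49.6 up to Sdhb at 49.6 to 174.

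The calls depended on single libraries. Without DKO1, DKO2 or DKO3 0 members were called, without TKO2 1 (Ndufb8), without TKO3 0 and without TKO1 15, all higher. The share of all genes called higher moved likewise, to 0.164, 0.0123 and 0.0% without DKO1, DKO2 and DKO3, 1.74 and 1.49% without TKO2 and TKO3 and 9.61% without TKO1. All 6 kept their sign in each of the 17 alternatives fitted across genes, and DESeq2 called 25 members higher and 2 lower (Ndufab1 and mt-Co2), where it called 11.6% and 7.22% of all genes. Over these alternatives the nuclear median stayed between 0.64 and 0.78, whereas the mitochondrial median ranged from -0.90 to -0.30. The mitochondrial median includes the genes with a complete nuclear copy.

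The muscle isoforms of complex IV did not move as one. Cox6a2, the heart and skeletal muscle form of subunit VIa, had 27.7, 7.92 and 1.43 CPM in DKO and 0.459, 40.7 and 11.5 in TKO. The groups overlapped widely, with TKO1 lowest and DKO1 second highest (log2 0.50, SE 1.44, adjusted p = 0.86). Cox7a1, the muscle form of subunit VIIa, had 0.0996, 1.38 and 1.19 CPM in DKO and 0.667, 3.62 and 3.01 in TKO (log2 1.45, SE 1.03, adjusted p = 0.426), also with overlap. Cox8b, the muscle form of subunit VIII, had 4, 0 and 0 counts in DKO and 9, 62 and 53 in TKO. That was too few for the filter with all 6 tumours, but it passed without TKO1 and was then among the 15 called.

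The general isoforms Cox6a1, Cox7a2 and Cox8a had log2 fold changes of 0.68, 0.31 and 0.80, with 0 called. In the 3 pairs together, muscle isoforms made up 7.15, 2.66 and 0.718% of the counts in DKO and 0.309, 8.76 and 2.36% in TKO (3.51 ± 3.30 against 3.81 ± 4.41, exact permutation p = 1.0). By pair, the muscle form took 14.5, 4.201 and 0.872% of the COX6A counts in DKO against 0.225, 13.8 and 3.12% in TKO (p = 0.7), and 0.142, 0 and 0% of the COX8 counts against 0.192, 1.81 and 0.97% (p = 0.1, the smallest possible in this exact permutation test). COX8 was the single pair without overlap, and in the COX7A pair p was 0.3.

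Skeletal muscle fibre genes were higher in all 3 TKO tumours, an order that Cox6a2 did not follow. Ckm, muscle creatine kinase, was 0, 0.0511 and 0.178 CPM in DKO and 2.96, 663 and 100.2 in TKO, and the 16 muscle genes summed to 4.88, 13.4 and 19.8 in DKO against 432, 13240 and 2454. DKO1 had the lowest muscle sum and the highest Cox6a2 of its group, and TKO1 had more muscle RNA than any DKO tumour and the least Cox6a2. The brown fat genes Ucp1, Cidea and Elovl3 were at or under 0.709 CPM in all 6 tumours, and 0 of the 4 tested genes of that list were called. Of these 4, 3 had log2 fold changes above 0 and 1 below (-2.07 to 4.29). All 8 genes of the list summed to 30.7 to 89.1 CPM in DKO and 31.5 to 129.9 in TKO. Of the slow and cardiac muscle genes 2 of 7 tested were called higher (28.6%, against 4.89% of all genes). Of these 7, 5 had log2 fold changes above 0 and 2 below (median 3.83). The list summed to 547 to 850 CPM in DKO and 373 to 569 in TKO. In all DKO tumours 6 of its 10 genes were under 1 CPM, so the others carry the DKO sums. Over the 6 tumours, the genes whose log2 CPM pattern was nearest to Cox6a2 (Euclidean distance of z-scores, among 9764 genes with mean log2 CPM at or above 3) were Rmdn3, Apip and Dchs1, at 0.14, 0.33 and 0.36. Nearest to Cox7a1 were Lmcd1, Cd68 and Flt1, at 0.31, 0.32 and 0.46. These are descriptions over 6 points, with no test.

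The other genes of the pathway were taken by list. Beside each count below stands the share over all genes tested, of which 4.89% were called higher and 2.47% lower. Genes linked to HIF, the transcription factor of low oxygen, had the most calls of the 6 pathway lists: 5 of 10 lower and 0 higher, with a median log2 fold change of -2.30. Beside Ndufa4l2 these were Bnip3, a receptor for the removal of mitochondria (144, 88.4 and 103 CPM in DKO and 18.5, 18.9 and 13.9 in TKO, log2 -2.71), Lonp1, a matrix protease (566, 529 and 439 against 86.4, 126 and 105, log2 -2.27), and the angiogenic factor Vegfa and the glucose transporter Slc2a1 (-2.33 and -2.85). Cox4i2, at 3.36, is on this list as well, and stood opposite to them. Of the 10 genes called in the 6 pathway lists, 1 was still called without DKO1, 0 without DKO2 or DKO3, 4 without TKO2 or without TKO3, and 10 without TKO1.

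Electron carriers and exchange proteins had a median of 0.74, near that of the nuclear members, with 1 of 12 tested called. Ucp2, an inner membrane carrier also abundant in leukocytes, had 7.37, 19.7 and 13.5 CPM in DKO and 459, 395 and 454.5 in TKO (log2 5.01, SE 0.45, adjusted p = 0.0111), beside the leukocyte sums given above. Cycs, cytochrome c, had 65.4, 42.6 and 47.0 CPM in DKO and 106, 105 and 114 in TKO, without overlap (log2 1.07, SE 0.26, adjusted p = 0.058). The ADP/ATP carriers Slc25a4 and Slc25a5 were also higher in every TKO tumour, at 0.93 and 1.79, and were not called.

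The tricarboxylic acid cycle enzymes had a smaller median of 0.31, with 15 of 17 above 0 and 0 called. By unadjusted p, 3 were under 0.05 in edgeR: Suclg1 (0.88), Mdh2 (0.79) and Idh3a (0.77). Of 75 tested mitochondrial ribosome genes, whose products translate the 13 mitochondrial mRNAs, Mrpl11 and Mrpl20 were called higher (1.52 and 1.61) and Mrpl33 lower (-1.93), with a median of 0.37. Genes for the expression of mitochondrial DNA and for biogenesis had a median of 0.09, the same as all genes, with 1 of 23 called, Pnpt1, an RNA exonuclease of mitochondria (lower, log2 -1.14, SE 0.26, adjusted p = 0.0459). Tfam, which packages and transcribes mitochondrial DNA, had 38.7, 25.03 and 32.8 CPM in DKO and 65.3, 43.6 and 41.1 in TKO, and Lrpprc, which stabilises mitochondrial mRNAs, had 127, 78.3 and 84.2 against 63.6, 55.8 and 50.6. Both separated the groups, in opposite directions, without a call (log2 0.64 and -0.77).

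The nuclear regulators Nrf1 and Esrra were higher in every TKO tumour, at 0.61 and 0.99, and not called. Ppargc1a, the coactivator of mitochondrial biogenesis, had 1.05, 2.20 and 2.02 CPM in DKO and 19.8, 1.40 and 0.459 in TKO, so it was high in TKO1 alone, with a log2 fold change of 2.04 with TKO1 and -0.91 without it. Among 26 tested assembly factors outside the symbol rule 0 were called by edgeR and the median was 0.21. With unadjusted p, 1 was under 0.05 with a higher TKO level, Sdhaf4 (1.55), and 3 with a lower one, among them the copper chaperone Cox17 (-1.36) and Surf1 (-0.99), both for complex IV.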

How the data were processed

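RNA from 3 DKO and 3 TKO tumours was selected with oligo(dT) and read by Illumina sequencing, per the labels' protocols. The authors deposited whole-number read counts per gene with no normalization, made with STAR 2.6.1 on mm10 per the submitters' processing notes. Which gene annotation was counted is not given in the sources here. The column that ignores strand was used, since the first strand held 50.2 to 51.3% of stranded counts. Reads antisense to a gene therefore count for it, and reads in more than 1 gene count for none. Lines of reads in no gene were left out: unmapped reads were 2.53 to 3.2% of a library, reads at several places 3.94 to 4.7%, in no gene 5.33 to 9.3% and in more than 1 gene 5.1 to 6.53%. GENCODE M21 gave symbols, positions and transcript lengths for 55240 IDs; the 956 unmatched IDs held at most 0.0088% of counts. Columns of the series table equalled the single files (0 genes differed).

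Genes were filtered with filterByExpr (minimum count 10), leaving 15361, scaled by TMM and compared with edgeR's quasi-likelihood test (edgeR 4.0.16, R 4.3.3, robust, no covariate), with Benjamini-Hochberg adjustment over all genes and a threshold of 0.05. Adjusted p-values of genes are edgeR's where no tool is named. CPM are per effective library size. For shares, two-sided exact permutation tests used all 20 assignments. Since separate animals are not stated, p-values reflect the spread of these 6 samples, which may be technical in part. Each group holds tumours of both sexes, so at least some came from different mice. Nearly identical sequence (at least 97% over 50 bases) was sought with BLAST 2.17.0. The scripts were tested on simulated data. There, 0 of 195 simulated 2-fold changes were called, with 9.05% of 4-fold and 61.7% of 16-fold changes. Fewer genes were changed in each simulated run than were called in the data, which makes the adjustment stricter there. These rates therefore do not carry over to the data, where the 6 called members differ by less than 4-fold. A member that was not called can still differ by 2-fold or more.

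Members and lists were chosen with earlier results of these data known. Named were all mitochondrial genes, the isoform pairs, up to 4 members per complex with the smallest p and those with the highest and lowest fold change, up to 3 genes per list with the smallest p, and the nearest genes of the muscle isoforms. Atp5if1 and the neighbours of Cox8b, which did not pass the filter, gave no value. Core subunits of complex I, Ndufab1, Atp5b, genes at 0, Ckm, Sp7 and Col1a1 were chosen after their values were seen. Alternatives were RLE factors, library totals, scaling without mitochondrial genes, DESeq2 1.42.0, limma-voom (limma 3.58.1), other filters, strand columns, a sex covariate, a replicate block and leaving out each tumour.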

Additional observations from a re-analysis of the deposited data

How the results depend on the processing

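The genome-wide count of 1131 called genes was 2893 with DESeq2, 158 with at least 1 CPM in both groups, 295 with a replicate block and 0 (without DKO3) to 2385 (without TKO1) when 1 tumour was left out. The 6 called members, all nuclear, became 27 with DESeq2 (26 nuclear and 1 mitochondrial), 2 with no filter on low counts, 1 with the 1 CPM filter, 0 with the replicate block and 0 to 15 when a tumour was left out; the cause was not tested. Counts stayed within 1.5 times under the other settings run. Replicate numbers do not pair the tumours: deviations of same-numbered tumours correlated at -0.007, 0.0089 and -0.0167, so calls lost under the block are no sign of a weaker effect. The nuclear median was 0.73 and the mitochondrial median -0.70 with the block, and the mitochondrial share differed by -0.966 percentage points (exact permutation p = 0.25 over paired signs).

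The difference in muscle isoform share (0.30 percentage points) changed sign for the COX6A pair alone (-0.792) and ranged from -2.17 to 2.12 when a tumour was left out. The shares of both genomes and their ratio kept their direction in all settings run. Of the named genes, these changed sign, none called, given as log2 fold changes with the range when 1 tumour was left out: Cox6a2 (-1.04 to 1.89, and -0.35 with limma-voom), Cox6b2 (-0.84 to 1.02), Cox7a2l (-0.0735 to 0.43), mt-Cytb (-0.45 to 0.24), mt-Nd1 (-0.25 to 0.51, and -0.0029 with no filter), mt-Nd2 (-0.66 to 0.17), mt-Nd4l (-1.12 to 0.27) and Ppargc1a (-0.91 to 2.598). So did the neighbours of Cox6a2: Apip (-0.32 to 0.31, and 0.0871 on the second strand), Dchs1 (-1.56 to 0.99, 0.21 with the block and 0.0851 with sex) and Rmdn3 (-0.17 to 0.20, -0.0247 with limma-voom, -0.0231 on the second strand, -0.0341 with no filter, -0.0035 with the block and -0.0036 with sex).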
